A study of Mus musculus with 4 samples.

Results

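The 10 genes described here encode interferon beta (Ifnb1), the receptor chains for type I interferon (Ifnar1 and Ifnar2), interferon gamma (Ifngr1 and Ifngr2) and interleukin 10 (Il10ra and Il10rb), and the kinases Jak1, Jak2 and Tyk2. They were taken by symbol from 37681 gene IDs in each count table, and each of the 10 was matched to 1 ID. Messenger RNA was sequenced from the bone marrow of C57BL/6 wild-type mice, cultured with supernatant of L929 cells, which secrete M-CSF, a growth factor for macrophages. The 4 groups, with 1 library each, were cells with shRNA against lncRNA-COX2 given 100 nM Pam3Cys4 for 5 h, cells with that shRNA left unstimulated, cells without shRNA given 100 nM Pam3Cys4 for 5 h, and cells without shRNA left unstimulated. Pam3Cys4 is a synthetic lipopeptide that TLR2 senses together with TLR1. The labels carry the letters EV in the titles of the libraries without shRNA and do not explain them, so whether those cells held a control construct is not known. The comparisons ask how the shRNA and the stimulus each go with the levels of these genes.

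Interferons and interleukin 10 signal through receptors made of 2 kinds of chain, each of which holds a JAK kinase on its inner side. IFNAR1 is paired with TYK2 and IFNAR2 with JAK1, IFNGR1 with JAK1 and IFNGR2 with JAK2, and IL10RA with JAK1 and IL10RB with TYK2. The kinases phosphorylate STAT proteins, which carry the signal to interferon-stimulated genes or, for interleukin 10, to anti-inflammatory genes. In macrophages, interferon beta released after Toll-like receptor or nucleic acid sensing acts back on the same cells, and the supply of IFNGR2 and of the interleukin 10 receptor is known to change with activation.

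The promoters of 4 of these genes are printed because they cover the ligand, the pair of interferon gamma receptor chains, whose levels followed different orders over the libraries, and the kinase with the widest range. RefSeq promoters, from 250 bases before to 50 after the gene start, were matched for 8 of the 10 genes on GRCm38.p6; Il10ra and Il10rb were not matched. Capitals mark matches on either strand to the IRF motif AANNGAAA, the interferon-stimulated response element (GAAA, any 2 bases, GAAA, which contains the IRF motif), the kappa B site (GGG, any 3 bases, TTCC) or the TATA box TATAAA.
Ifnb1, chr4:88522745-88523044, minus strand: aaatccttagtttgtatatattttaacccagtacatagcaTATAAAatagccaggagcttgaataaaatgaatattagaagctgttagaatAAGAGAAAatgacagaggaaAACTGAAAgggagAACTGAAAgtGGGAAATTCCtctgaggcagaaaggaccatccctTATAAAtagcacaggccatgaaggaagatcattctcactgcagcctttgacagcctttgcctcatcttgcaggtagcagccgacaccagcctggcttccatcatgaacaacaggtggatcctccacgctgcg
Ifngr2, chr16:91546809-91547108, plus strand: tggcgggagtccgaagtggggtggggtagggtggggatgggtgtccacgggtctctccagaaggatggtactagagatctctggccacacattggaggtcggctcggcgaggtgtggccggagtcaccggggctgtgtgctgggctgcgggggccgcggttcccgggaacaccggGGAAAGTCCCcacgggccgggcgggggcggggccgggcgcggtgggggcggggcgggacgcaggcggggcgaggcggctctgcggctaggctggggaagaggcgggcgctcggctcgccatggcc
Ifngr1, chr10:19591699-19591998, plus strand: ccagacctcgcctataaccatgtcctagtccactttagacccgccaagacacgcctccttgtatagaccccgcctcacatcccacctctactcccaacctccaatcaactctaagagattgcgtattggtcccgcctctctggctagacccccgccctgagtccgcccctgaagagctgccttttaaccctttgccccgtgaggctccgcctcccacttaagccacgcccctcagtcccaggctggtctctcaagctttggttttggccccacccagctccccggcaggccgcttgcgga
Jak2, chr19:29251553-29251852, plus strand: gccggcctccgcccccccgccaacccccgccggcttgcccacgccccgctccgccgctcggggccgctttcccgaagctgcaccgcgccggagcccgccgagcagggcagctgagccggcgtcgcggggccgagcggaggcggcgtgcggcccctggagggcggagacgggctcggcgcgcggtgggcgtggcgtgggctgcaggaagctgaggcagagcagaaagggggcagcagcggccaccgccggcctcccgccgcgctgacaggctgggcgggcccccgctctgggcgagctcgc
The Ifnb1 promoter held 3 IRF motifs, starting 159, 139 and 126 bases before the gene start, and 1 kappa B match starting 116 bases before it, none of which overlapped. It also held 2 TATAAA matches, starting 210 and 82 bases before the start. Among all 32544 promoters of the same length, 23.9% held an IRF motif, 5.56% a kappa B match and 13.6% a TATAAA match. The Ifngr2 promoter held 1 kappa B match on the minus strand. No match to the 4 motifs was found in the windows of Ifnar1, Ifnar2, Ifngr1, Jak1, Jak2 and Tyk2, and none of the 8 windows held the full response element, which 3.45% of all promoters held. The genes also differed in base composition: the Ifnb1 promoter was 42.7% G or C with 3 CG dinucleotides, whereas that of Jak2 was 81.0% G or C with 44, against a median of 53.0% and 7 over all promoters. A match is a run of letters and not evidence of binding.

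In the order shRNA with Pam3Cys4, shRNA unstimulated, no shRNA with Pam3Cys4 and no shRNA unstimulated, the libraries held 59400238, 65826838, 51979051 and 47385277 gene reads. Levels are given as CPM, counts per 1000000 gene reads after TMM scaling, and intervals are 95% intervals that cover counting error only, exact except for the ratios of ratios. The macrophage marker list was read in full, 7 of 7 genes, in every library and summed to 7396, 6388, 7692 and 5686 CPM, which fits the labelled culture. NK and T cell markers summed to at most 0.0767 CPM, B cell markers to at most 0.269, granulocyte markers to at most 0.364 and fibroblast markers to at most 0.0547. Plasmacytoid dendritic cell markers, of interest as these cells make type I interferon, summed to 1.64 and 1.31 CPM in the shRNA libraries with Pam3Cys4 and unstimulated, and to 11.8 and 7.41 CPM in those without shRNA. Cox6a2 gave most of that sum, with 68 and 81 counts in the shRNA libraries with Pam3Cys4 and unstimulated, against 589 and 375 in those without shRNA. Ccr9 went the other way after Pam3Cys4, with 21 counts with shRNA against 4 without, and Siglech, a defining surface marker, had 1, 1, 4 and 7 counts in the order of libraries above. The part of these cells in the shRNA ratios was not tested. The Y-linked genes, chosen after their values were seen, set the shRNA libraries apart: Ddx3y had 1116 and 921 counts in the shRNA libraries with Pam3Cys4 and unstimulated, against 4 and 3 counts in the corresponding libraries without shRNA. Kdm5d and Uty showed the same split, so in every shRNA ratio below the shRNA and this difference between the libraries cannot be told apart. LncRNA-COX2 was not analysed here, so how far the shRNA lowered it is not known. In these bulk libraries, fewer cells of a type and less RNA per cell cannot be told apart.

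Ifnb1 was read at a very low level in all 4 libraries and was higher after Pam3Cys4 in both shRNA states. It had 47 counts in the shRNA library with Pam3Cys4, 10 in the shRNA library left unstimulated, 28 in the library without shRNA given Pam3Cys4 and 2 in the unstimulated library without shRNA. These counts correspond to 0.856 CPM (0.629 to 1.14), 0.150 CPM (0.0720 to 0.276), 0.554 CPM (0.368 to 0.801) and 0.0384 CPM (0.00465 to 0.139). The intervals of both stimulated libraries lay above those of both unstimulated libraries. Per kb of exon, Ifnb1 stood at percentile 39.5, 28.6, 36.4 and 21.6 among the 14484 protein-coding genes with reads, in the same order of libraries.

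With shRNA, Ifnb1 was 5.70-fold higher after Pam3Cys4 than in unstimulated cells (2.84 to 12.7), and without shRNA 14.4-fold higher (3.64 to 125). Between shRNA states the counting intervals included 1: the ratio of shRNA to no shRNA was 1.54 after Pam3Cys4 (0.948 to 2.56) and 3.91 in unstimulated cells (0.834 to 36.7). A difference in Ifnb1 between shRNA states was therefore not detectable at this depth, and it was not shown to be absent. Ifnb1 stayed below the 5 CPM that a gene needed in its higher library to enter the counts of genes at least 2-fold apart.

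Other ligands of these receptors, where matched, were not detected or rare. The interferon genes Ifna1, Ifna5, Ifna6, Ifna7, Ifna9, Ifna11, Ifna14, Ifna15, Ifnab and Ifnz were not matched and not examined. Of 11 interferon genes matched, Ifnb1 included, 9 had no count in any library, among them Ifng, the ligand of IFNGR1 and IFNGR2, and Ifne and Ifnk. Ifna4 had 1 count, in the shRNA library with Pam3Cys4. A count of 0 allows up to 0.0547, 0.0450, 0.0594 and 0.0576 CPM (3 counts) in the 4 libraries, in the order given above. Alignments to several places were not counted for any gene, so these bounds do not cover reads shared between genes. Il10, the ligand of IL10RA and IL10RB, had 60 counts in the shRNA library with Pam3Cys4, 7 in the unstimulated shRNA library, 14 in the library without shRNA given Pam3Cys4 and 2 in the unstimulated library without shRNA. After Pam3Cys4, Il10 was 3.94-fold higher with shRNA than without (2.18 to 7.64). Il10 was 10.4-fold higher after Pam3Cys4 than in unstimulated cells with shRNA (4.75 to 27.0) and 7.22-fold higher without (1.66 to 65.5). The interleukin 6 family ligands, which signal through JAK1 as well, went the other way between shRNA states: after Pam3Cys4, Il6, Lif and Osm had 114, 275 and 1063 counts with shRNA, against 971, 1640 and 3076 without. These 3 genes were 9.26-fold, 6.48-fold and 3.14-fold lower with shRNA. They were the only listed ligands past 5 CPM, so 3 of 3 were at least 2-fold lower, where 5.58% of all genes were. Il6 passed that level only through the library without shRNA, at 19.2 CPM against 2.08. Il10, which was higher with shRNA, stayed below it and outside this count.

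**Figure D1:**
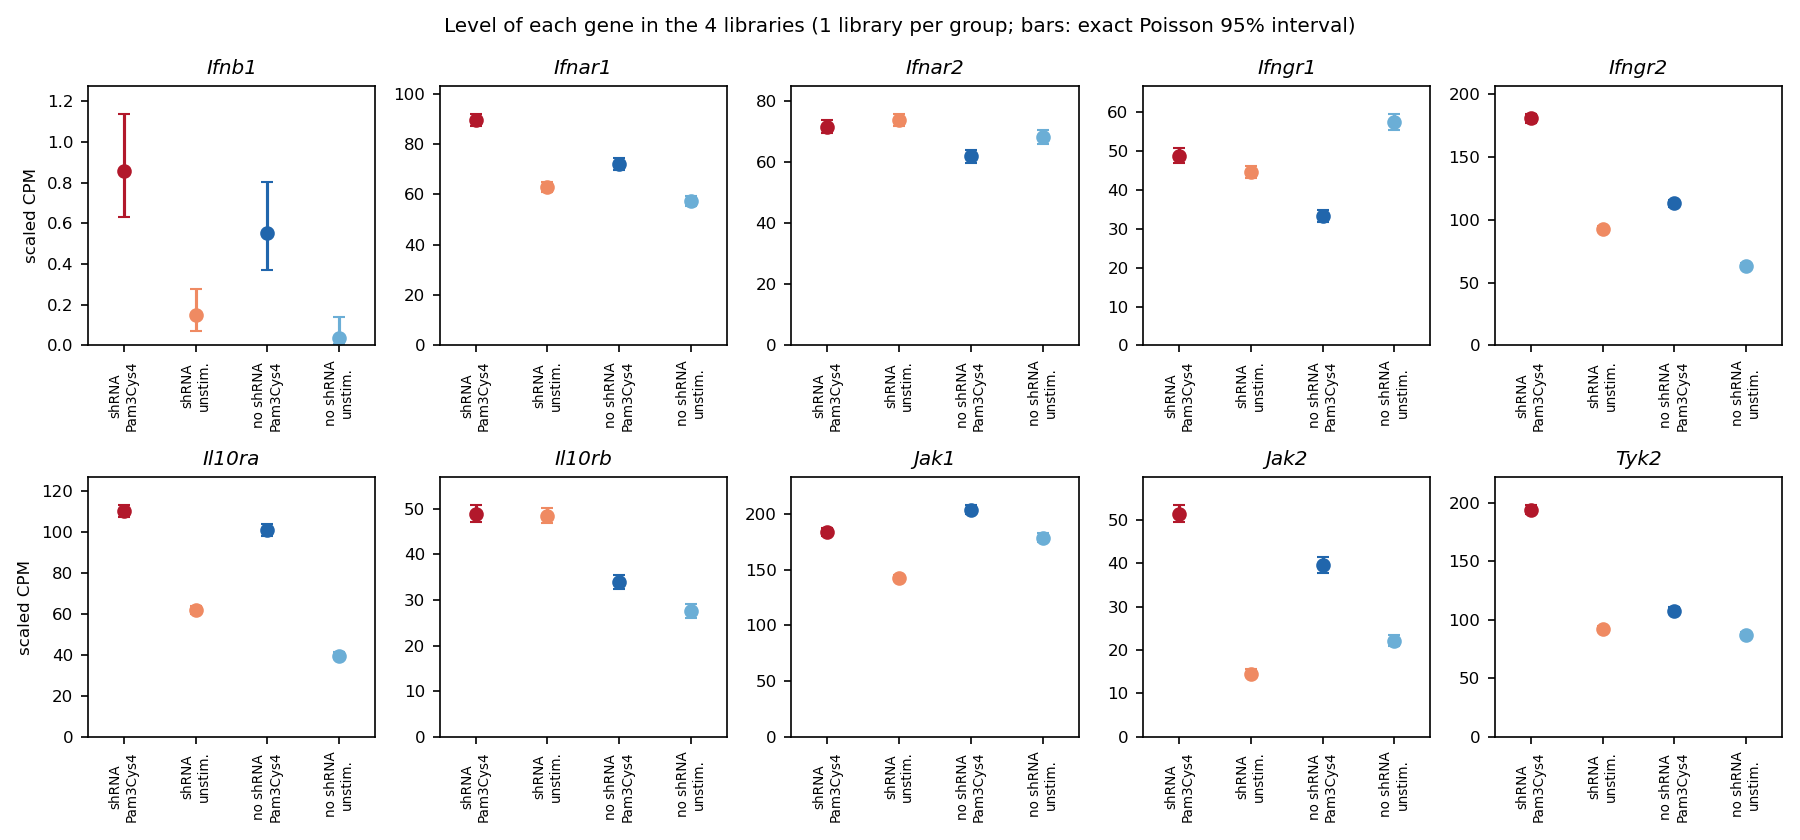
Scaled CPM (vertical axes, linear from 0, a scale of its own for each gene) of the 10 genes in the 4 libraries, 1 library per group, with exact Poisson 95% intervals as bars. Ifnb1 reaches 1.14 CPM at its highest upper bound while the other genes lie between 14.6 and 204 CPM, and Jak2 shows the widest range of these.

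The receptor chains and kinases were all read well above the filter, and none was 2-fold apart between shRNA states. The mark for a 2-fold difference was a ratio of 2 or more, or of 0.5 or less, whose interval excluded 1. After Pam3Cys4, 0 of 9 genes past the filter were at least 2-fold higher with shRNA and 0 of 9 lower, where the background over all 9702 genes was 9.0% higher and 5.58% lower. In unstimulated cells the counts were again 0 of 9 and 0 of 9, against 7.00% higher and 4.82% lower of 9651 genes. The median log2 ratio of shRNA to no shRNA over these 9 genes was 0.38 after Pam3Cys4 and 0.11 in unstimulated cells, beside 0.05 and 0.02 over all genes. The ratios of the 9 genes ran from 0.902 to 1.80 after Pam3Cys4 and from 0.661 to 1.76 in unstimulated cells.

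Between stimulation states the ratios of the 9 genes ran from 0.972 to 3.52 with shRNA and from 0.580 to 2.55 without, with median log2 ratios of 0.51 and 0.31, beside 0.02 and -0.0008 over all genes. With shRNA, 2 of 9 genes were at least 2-fold higher after Pam3Cys4 and 0 lower, where 6.30% of 9601 genes were higher and 3.53% lower. Without shRNA, 1 of 9 was higher and 0 lower, where 7.07% of 9555 genes were higher and 6.51% lower. A single gene is a larger share of 9 than any of these background shares, so a count of 0 or 1 cannot set the group apart from the background. The 2 of 9 with shRNA is a larger share than 6.30%. It rests on 2 genes, and 1 of them, Tyk2, had a ratio of 1.92 under library totals and no longer counted. The split of all genes depended on scaling: under library totals it was 494 higher and 466 lower with shRNA, against 605 and 339 under TMM, and 541 higher and 898 lower without shRNA, against 676 and 622 under TMM. Library totals moved the median log2 stimulation ratio of all genes to -0.12 with shRNA and -0.19 without. Tlr1, the partner of TLR2 in sensing Pam3Cys4, had 302 and 240 counts in the shRNA libraries with Pam3Cys4 and unstimulated, against 3393 and 2917 in those without shRNA, and its part in any difference of the stimulation ratios was not tested.

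The type I interferon receptor chains differed little. Ifnar1, the chain that holds TYK2, had 89.4 CPM in the shRNA library with Pam3Cys4, 62.9 in the unstimulated shRNA library, 72.1 in the library without shRNA given Pam3Cys4 and 57.3 in the unstimulated library without shRNA. It was higher after Pam3Cys4 by 1.42-fold with shRNA (1.36 to 1.48) and by 1.26-fold without (1.20 to 1.32). The shRNA ratio of Ifnar1 was 1.24 after Pam3Cys4 (1.19 to 1.30) and 1.10 in unstimulated cells (1.05 to 1.15). Ifnar2, the chain that holds JAK1, had 71.8 and 73.8 CPM with shRNA (Pam3Cys4 and unstimulated) and 62.0 and 68.3 CPM without. Its highest level was 1.19 times its lowest, the narrowest range of the 10 genes. The stimulation ratio of Ifnar2 was 0.972 with shRNA (0.932 to 1.01), an interval that includes 1, and 0.907 without (0.864 to 0.952). Under library totals the shRNA ratio of Ifnar2 in unstimulated cells crossed 1, at 0.994 against 1.08 under TMM.

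The interferon gamma receptor chains followed different orders over the 4 libraries. Ifngr2, the chain that holds JAK2, had 181 CPM in the shRNA library with Pam3Cys4, 92.8 in the unstimulated shRNA library, 113 in the library without shRNA given Pam3Cys4 and 63.5 in the unstimulated library without shRNA. It was 1.95-fold higher after Pam3Cys4 with shRNA (1.89 to 2.01) and 1.78-fold higher without (1.71 to 1.86). The shRNA ratio was 1.60 after Pam3Cys4 (1.55 to 1.65) and 1.46 in unstimulated cells (1.40 to 1.53). Both stimulated libraries were thus above both unstimulated ones, and each shRNA library was above its counterpart.

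Ifngr1, the ligand-binding chain that holds JAK1, followed another order, with 48.8 CPM in the shRNA library with Pam3Cys4, 44.7 in the unstimulated shRNA library, 33.4 in the library without shRNA given Pam3Cys4 and 57.5 in the unstimulated library without shRNA. The 2 libraries without shRNA were thus the lowest and the highest of the 4. Without shRNA, Ifngr1 was 1.72-fold lower after Pam3Cys4 (ratio 0.580, 0.546 to 0.616). With shRNA its stimulation ratio was 1.09 (1.04 to 1.15), and 0.998 under library totals. The shRNA ratio of Ifngr1 was 1.46 after Pam3Cys4 (1.38 to 1.56) and 0.777 in unstimulated cells (0.738 to 0.817), so that it lay on different sides of 1 in the 2 states.

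The interleukin 10 receptor chains were both higher in each shRNA library than in its counterpart without shRNA. Il10ra, the ligand-binding chain, had 110.4 CPM in the shRNA library with Pam3Cys4, 61.9 in the unstimulated shRNA library, 101 in the library without shRNA given Pam3Cys4 and 39.7 in the unstimulated library without shRNA. It was 2.55-fold higher after Pam3Cys4 without shRNA (2.42 to 2.68), the 1 receptor chain counted as 2-fold apart, and 1.78-fold higher with shRNA (1.71 to 1.86). The shRNA ratio of Il10ra was 1.09 after Pam3Cys4, against 1.56 in unstimulated cells (1.48 to 1.65). Il10rb, a chain shared with the interleukin 22 and lambda interferon receptors, had 48.9 and 48.5 CPM with shRNA (Pam3Cys4 and unstimulated), against 33.9 and 27.6 CPM without. Both shRNA libraries were above both libraries without shRNA. The shRNA ratio of Il10rb was 1.44 after Pam3Cys4 (1.36 to 1.53) and 1.76 in unstimulated cells (1.65 to 1.87), the highest shRNA ratio of the 9 genes in that state. With shRNA, the stimulation ratio of Il10rb was 1.01 (0.958 to 1.06), which became 0.995 with DESeq2 size factors and 0.921 with library totals.

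Of the kinases, Jak2 differed most between libraries. Jak2, which serves IFNGR2 and many cytokine and growth factor receptors, had 51.4 CPM in the shRNA library with Pam3Cys4, 14.6 in the unstimulated shRNA library, 39.6 in the library without shRNA given Pam3Cys4 and 22.1 in the unstimulated library without shRNA. The shRNA libraries were thus the highest and the lowest of the 4. Jak2 was 3.52-fold higher after Pam3Cys4 with shRNA (3.27 to 3.79) and 1.79-fold higher without (1.66 to 1.93). Its shRNA ratio was 1.30 after Pam3Cys4 (1.23 to 1.38) and 0.661 in unstimulated cells (0.606 to 0.720), which is 1.51-fold lower with shRNA.

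Tyk2, which serves IFNAR1 and IL10RB, had 194 CPM in the shRNA library with Pam3Cys4, 92.2 in the unstimulated shRNA library, 108 in the library without shRNA given Pam3Cys4 and 86.9 in the unstimulated library without shRNA. The shRNA library with Pam3Cys4 stood above the other 3, which lay between 86.9 and 108 CPM. Tyk2 was 2.11-fold higher after Pam3Cys4 with shRNA (2.04 to 2.17) and 1.24-fold higher without (1.19 to 1.29). Under library totals the ratio with shRNA was 1.92, which no longer counted as 2-fold. The shRNA ratio of Tyk2 was 1.80 after Pam3Cys4 (1.74 to 1.86), against 1.06 in unstimulated cells (1.02 to 1.10) or 0.977 under library totals.

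Jak1, which serves all 3 receptors through IFNAR2, IFNGR1 and IL10RA, was the kinase with the narrowest range, 1.43 between its highest and lowest level. Jak1 had 184 and 142 CPM with shRNA (Pam3Cys4 and unstimulated) and 204 and 179 CPM without. It was the 1 gene of the 9 with a shRNA ratio below 1 in both states, at 0.902 after Pam3Cys4 and 0.796 in unstimulated cells.

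**Figure D2:**
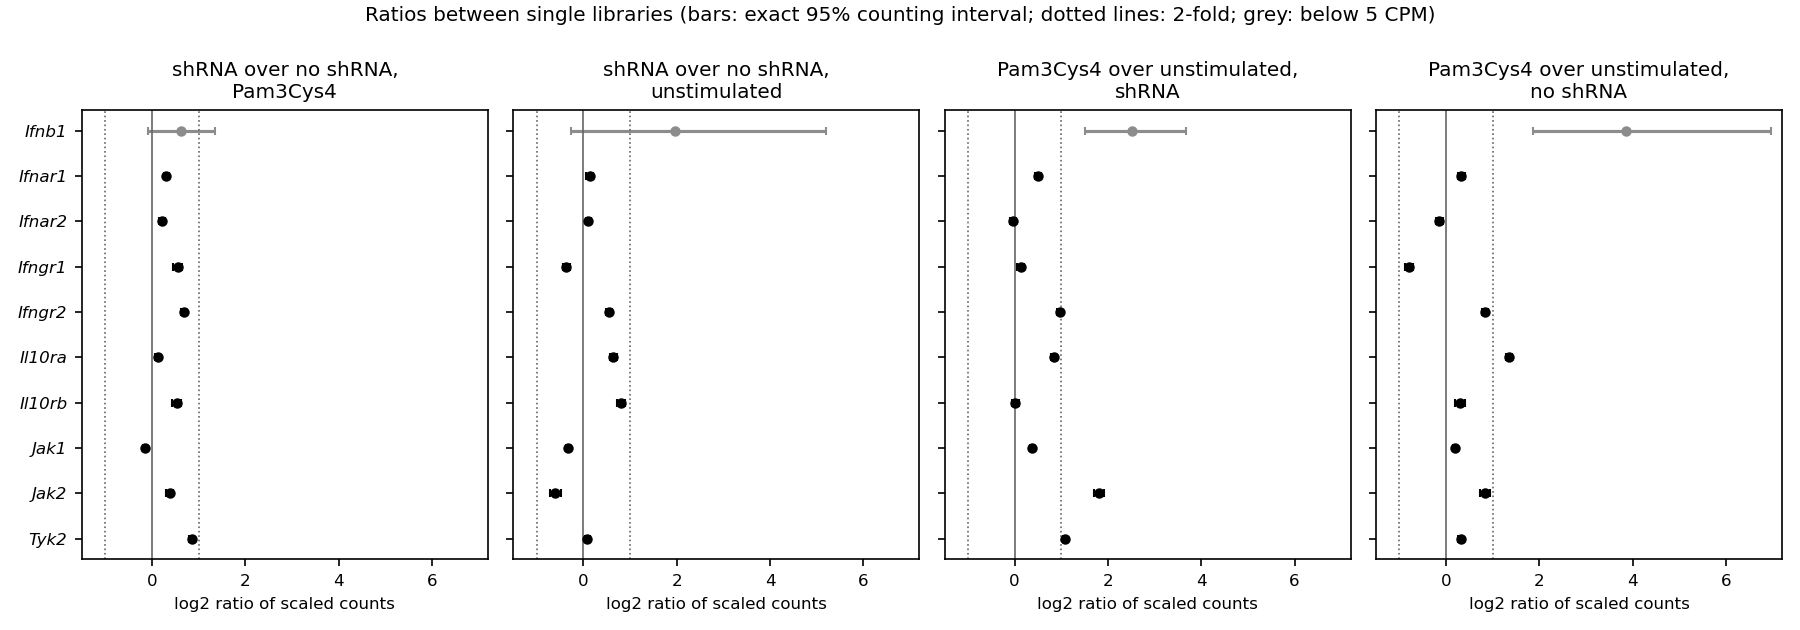
Log2 ratios of scaled counts between single libraries (horizontal axes) for the 10 genes (rows), with exact 95% counting intervals as bars, dotted lines at 2-fold, and Ifnb1, below 5 CPM, in grey. In the shRNA comparisons all 9 black points lie inside the dotted lines, while Jak2 and Tyk2 lie beyond 2-fold in the stimulation comparison with shRNA and Il10ra in the one without.

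The stimulation ratio with shRNA was set against that without as a ratio of ratios, for genes with at least 10 counts in every library. For the kinases this ratio was 1.97 for Jak2 (1.77 to 2.18), 1.70 for Tyk2 (1.61 to 1.78) and 1.13 for Jak1. For the receptor chains it was 1.89 for Ifngr1 (1.74 to 2.04), 1.13 for Ifnar1, 1.09 for Ifngr2, 1.07 for Ifnar2, 0.820 for Il10rb and 0.699 for Il10ra (0.655 to 0.746). The ratio was above 1 for 7 of the 9 genes and below 1 for Il10ra and Il10rb, and the counting interval excluded 1 for all 9 under TMM scaling, so that it sets none of them apart. Of the 9 genes, 0 reached 2-fold in either direction, where 1.94% of 9857 genes were higher and 1.64% lower. Under library totals Jak2 reached 2.03 and counted as higher. The median log2 ratio of ratios was 0.18 over the 9 genes and 0.02 over all genes.

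Ratios of partner chains within 1 library do not depend on how libraries were scaled. Per kb of exon, Ifngr2 stood at 2.80 times Ifngr1 in the shRNA library with Pam3Cys4, 1.57 in the unstimulated shRNA library, 2.57 in the library without shRNA given Pam3Cys4 and 0.834 in the unstimulated library without shRNA. Unstimulated cells without shRNA were thus alone in having less Ifngr2 than Ifngr1. The balance was 1.78 times higher after Pam3Cys4 with shRNA and 3.08 times higher without. Il10ra over Il10rb was also higher in both stimulated libraries, at 2.46 with shRNA after Pam3Cys4, against 1.39 unstimulated, and 3.25 without shRNA after Pam3Cys4, against 1.56 unstimulated. Ifnar1 over Ifnar2 was 0.698 against 0.477 with shRNA (Pam3Cys4 against unstimulated) and 0.652 against 0.470 without. In each receptor the balance of the chains thus differed between Pam3Cys4 and unstimulated cells in both shRNA states. Which chain was divided by which was a choice made for each pair, so the shared direction is not a result.

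Among the kinases, Tyk2 over Jak1 was 1.11 in the shRNA library with Pam3Cys4, 0.682 in the unstimulated shRNA library, 0.557 in the library without shRNA given Pam3Cys4 and 0.512 in the unstimulated library without shRNA. The shRNA library with Pam3Cys4 was the 1 library with more Tyk2 than Jak1 per kb. Jak2 over Jak1 was 0.402 against 0.147 with shRNA (Pam3Cys4 against unstimulated) and 0.279 against 0.178 without. Jak2 was below Jak1 and Tyk2 per kb in all 4 libraries.

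**Figure D3:**
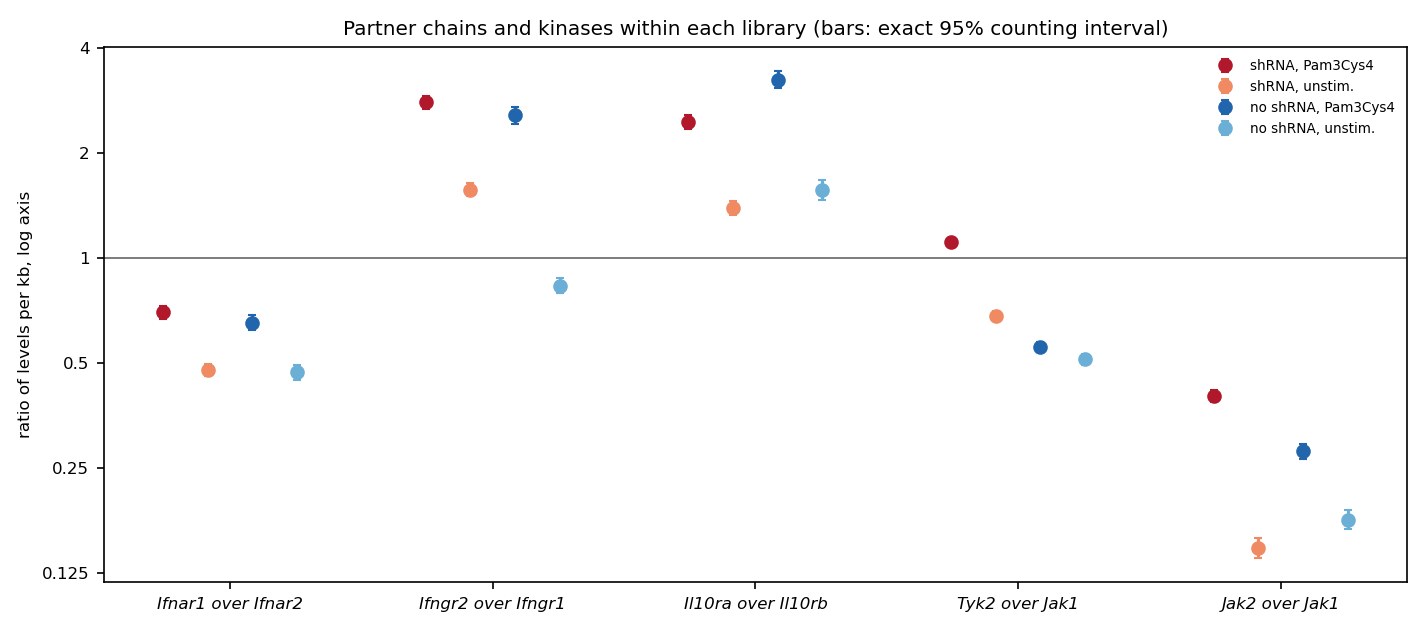
Ratio of levels per kb within each library (vertical axis, log scale) for 3 pairs of receptor chains and 2 pairs of kinases, in the 4 libraries, with exact 95% counting intervals. Ifngr2 over Ifngr1 lies at 2.80, 1.57 and 2.57 in 3 libraries and below 1, at 0.834, in unstimulated cells without shRNA, and Tyk2 over Jak1 exceeds 1 in the shRNA library with Pam3Cys4.

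Ordered by CPM per kb, Ifngr2 led in the shRNA library with Pam3Cys4 at 48.1, followed by Il10ra at 31.6, Tyk2 at 28.3 and Jak1 at 25.4, then Ifnar2 at 21.6, Ifngr1 at 17.2, Ifnar1 at 15.1, Il10rb at 12.8, Jak2 at 10.2 and Ifnb1 at 1.14. No neighbours in that order had overlapping counting intervals. Ifngr2 also led in the unstimulated shRNA library, at 24.6, before Ifnar2 at 22.2 and Jak1 at 19.7, with Jak2 at 2.90 and Ifnb1 at 0.200 last. There the intervals of Tyk2 at 13.4 and Il10rb at 12.7 overlapped. In the library without shRNA given Pam3Cys4, Ifngr2 at 30.1, Il10ra at 28.9 and Jak1 at 28.2 could not be ordered beyond their intervals, nor could Ifnar1 at 12.1 and Ifngr1 at 11.7. In unstimulated cells without shRNA, Jak1 led at 24.7, and Ifnar2 at 20.5 and Ifngr1 at 20.2 overlapped. Jak2 and Ifnb1 were the lowest 2 of the 10 genes in every library.

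Ifnar2, Il10rb, Ifnar1 and Ifngr2 follow each other without another coding gene between them on chromosome 16 in the RefSeq annotation. These neighbours did not share 1 pattern: Ifnar2 had a 1.19-fold range over the 4 libraries, Ifnar1 1.56-fold, Il10rb 1.77-fold and Ifngr2 2.85-fold. Ifnar2, Il10rb and Jak1 carry a tag for overlapping loci in GENCODE, and the strand setting of the counting is not given in the sources used here. Their counts may therefore include reads from overlapping transcripts, or lack reads set aside as ambiguous. Ambiguous reads made up 1.68 to 1.92% of the totals.

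The wider pathway was described with lists of genes chosen with earlier results of these data known. Among the STAT factors and their partners, 3 of 8 genes past the filter were at least 2-fold higher with shRNA after stimulation and 2 of 8 in unstimulated cells, with 0 lower in either state. The background of all genes was 9.0% higher and 5.58% lower after Pam3Cys4, and 7.00% and 4.82% in unstimulated cells. Stat2 was 11.0-fold higher with shRNA after Pam3Cys4 and 8.15-fold in unstimulated cells, and Irf9, its DNA-binding partner, 3.81-fold and 5.58-fold. Irf1, an interferon-induced transcription factor that is counted again among the interferon gamma targets below, was 4.05-fold higher with shRNA after Pam3Cys4 and 1.93-fold in unstimulated cells. The list's median log2 shRNA ratio was 0.51 after Pam3Cys4 and 0.69 in unstimulated cells, beside 0.38 and 0.11 for the 9 receptor chains and kinases. Stat3, the main factor downstream of the interleukin 10 receptor, was not 2-fold apart between shRNA states, nor was the fourth kinase of the family, Jak3.

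Among inhibitors of JAK-STAT signalling, after Pam3Cys4 1 of 18 was at least 2-fold higher with shRNA and 1 lower, and in unstimulated cells 2 of 16 were higher and 1 lower. These counts are near the background of all genes, 9.0% higher and 5.58% lower after Pam3Cys4 and 7.00% and 4.82% in unstimulated cells. Usp18, which holds back signalling at IFNAR2, had 502 and 113 CPM with shRNA (Pam3Cys4 and unstimulated), against 29.1 and 3.86 CPM without. It was 17.3-fold higher with shRNA after Pam3Cys4 and 29.3-fold higher in unstimulated cells. Cish, an inhibitor of STAT5 signalling, was lower with shRNA after Pam3Cys4, with 144 counts against 3054. Socs3, which inhibits gp130 and JAK2 signalling, had a shRNA ratio of 1.26 after Pam3Cys4 and was 4.11-fold lower with shRNA in the unstimulated state. The stimulation ratio of Socs3 was 71.8 with shRNA (64.5 to 80.1) and 13.9 without (13.0 to 14.8).

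Genes that act upstream of Ifnb1, the sensors, adaptors, kinases and factors of its induction, were split. After Pam3Cys4, 10 of 28 were at least 2-fold higher with shRNA and 1 lower, and in unstimulated cells 6 of 27 were higher and 1 lower. Over all genes, 9.0% were higher and 5.58% lower after Pam3Cys4, and 7.00% and 4.82% in unstimulated cells. The RNA sensor genes Dhx58, Ddx58 and Ifih1 were 15.8-fold, 12.7-fold and 10.9-fold higher with shRNA after Pam3Cys4 and 31.8-fold, 21.7-fold and 11.8-fold higher in unstimulated cells. Irf7, a factor that binds interferon promoters and is itself induced by interferon, was 17.3-fold higher with shRNA after Pam3Cys4 and 27.6-fold in unstimulated cells. It is counted again among the type I interferon targets below. Irf3, the constitutive factor that starts Ifnb1 transcription, had shRNA ratios of 0.991 after Pam3Cys4 and 0.993 in unstimulated cells, and Tbk1, the kinase that activates it, had 1.27 and 1.02. Tlr1 was the 1 lower gene, by 12.2-fold after Pam3Cys4 and 15.5-fold in unstimulated cells. Several of the called genes passed the filter only through the library where they were high, so the filter has a part in these counts. Tlr3, the gene of this list farthest from a ratio of 1 after Pam3Cys4, had 61.0 CPM with shRNA against 2.81 without. In unstimulated cells Dhx58 had 145 CPM with shRNA against 4.57 without, and Tlr1 3.60 against 56.0.

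Targets of the interferon receptors were higher with shRNA in both stimulation states. After Pam3Cys4, 16 of 16 type I interferon targets past the filter were at least 2-fold higher with shRNA, and in unstimulated cells 15 of 15. Their median log2 ratios were 4.11 and 5.30. The background over all genes was 9.0% and 7.00% higher. In unstimulated cells most of these targets passed the filter only through the shRNA library, where they were high, as did Mx1 and Mx2 after Pam3Cys4. The filter therefore has a large part in the count for unstimulated cells. Only Oas1a, Oas3, Oasl1, Irf7 and Bst2 also reached 5 CPM there without shRNA. Examples are Mx2 after Pam3Cys4, at 23.4 CPM against 2.40, and Isg15 in unstimulated cells, at 44.9 against 0.787. Of the interferon gamma targets, 11 of 11 were higher after Pam3Cys4 and 9 of 10 in unstimulated cells, with medians of 3.61 and 3.67. Here too the filter has a part. In unstimulated cells Gbp2, Gbp3, Gbp7, Gbp9, Igtp, Irgm2 and Cd274 passed only through the shRNA library, which is most of the counted genes. After Pam3Cys4 the same held for Gbp3, Gbp4, Gbp9, Igtp and Irgm2. Gbp9, for example, had 40.0 CPM with shRNA against 0.891 without after Pam3Cys4, and 17.1 against 0.671 in unstimulated cells. Ciita, below the filter, had a ratio of 0.418 after Pam3Cys4 (0.114 to 1.31). Ifng had no count in any library. Many genes of this list also respond to type I interferon. These 2 lists were known from earlier results of these data and are no independent evidence of the direction.

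**Figure D4:**
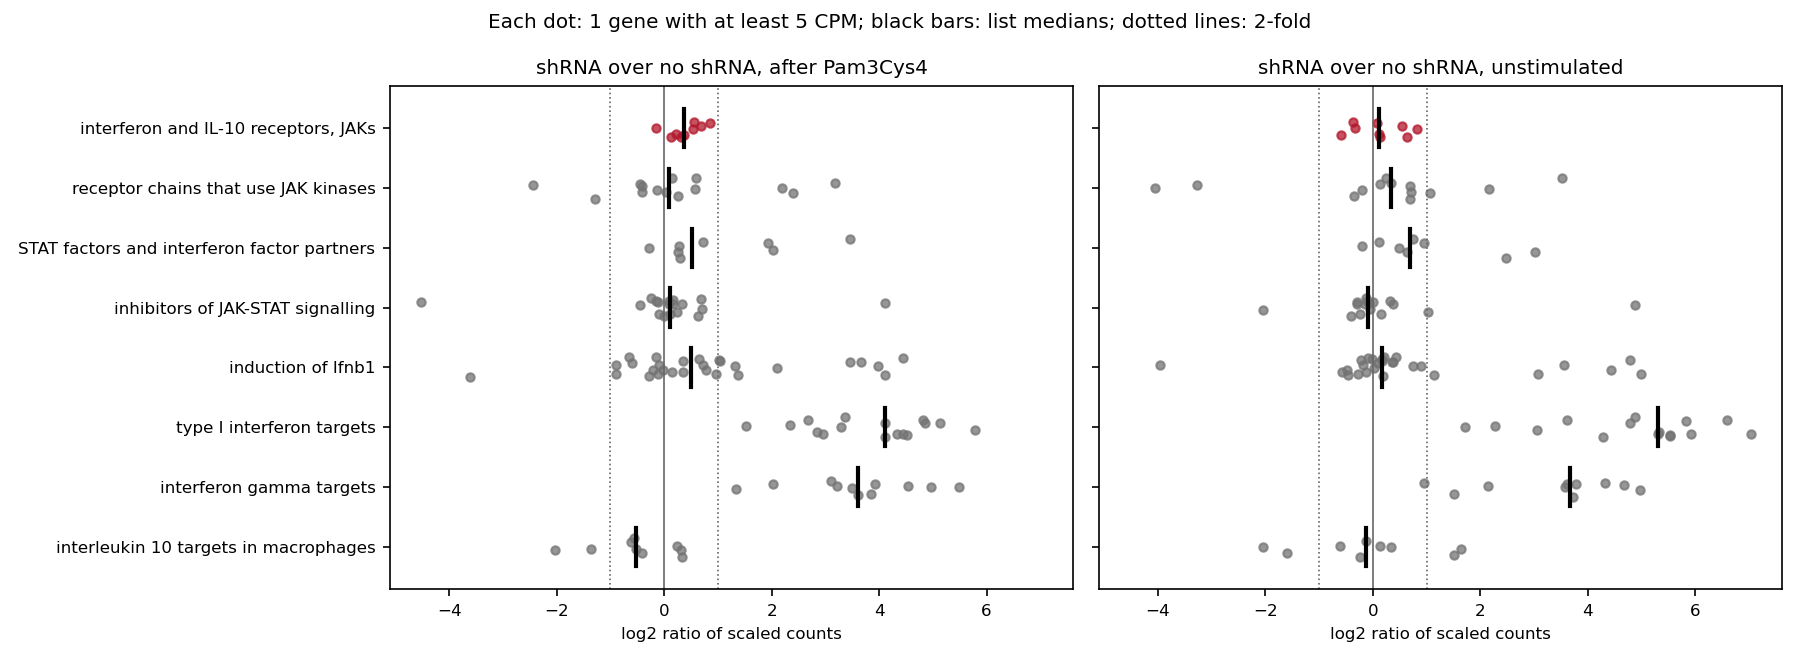
Log2 ratio of shRNA to no shRNA (horizontal axes) after Pam3Cys4 and in unstimulated cells, 1 dot per gene that reached 5 CPM in either library, by list (rows), with list medians as black bars and dotted lines at 2-fold. The interferon and interleukin 10 receptor chains and JAK kinases, in red, lie between -0.60 and 0.85, while the type I interferon targets have medians of 4.11 and 5.30.

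Other receptor chains that use JAK kinases included genes at least 2-fold apart in both directions. After Pam3Cys4, 3 of 14 were at least 2-fold higher with shRNA and 2 lower, and in unstimulated cells 3 of 13 were higher and 2 lower, where the background of all genes was 9.0% higher and 5.58% lower after Pam3Cys4 and 7.00% and 4.82% in unstimulated cells. Il7r, the interleukin 7 receptor chain, was 9.01-fold higher with shRNA after Pam3Cys4 and 11.5-fold in unstimulated cells, and Il12rb2, an interleukin 12 receptor chain that uses JAK2, 4.56-fold and 4.50-fold. Il15ra, the interleukin 15 binding chain, was 5.24-fold higher with shRNA after Pam3Cys4. Lifr, the leukemia inhibitory factor receptor, was lower with shRNA, with 11 counts against 130 after Pam3Cys4 and 56 against 730 in unstimulated cells; after Pam3Cys4 it lay below 5 CPM and outside the count, in which Csf3r, the G-CSF receptor, was the other lower gene besides Il21r. Il21r, the interleukin 21 receptor, was lower with shRNA by 5.46-fold after Pam3Cys4 and by 9.66-fold in unstimulated cells. The list median log2 ratio was 0.09 after Pam3Cys4 and 0.34 in unstimulated cells. Several of the called genes passed the filter only through the library where they were high, so the filter has a part in these counts. After Pam3Cys4, Il7r had 12.8 CPM with shRNA against 1.43 without, and Il21r 1.62 against 8.85.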

How the data were processed

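Messenger RNA from mouse bone marrow cells was read at 50 bp in 4 libraries, 1 per group, per the labels' protocols. The submitters' processing notes name CASAVA 1.8, TopHat and HTSeq as tools and NCBIM37 as the build; no other version, annotation release or strand setting is given in the sources used here. The authors deposited HTSeq read counts for each gene ID, with no normalization. Lines that name no gene held 32.5 to 34.4% of the totals, mostly alignments to several places (27.0 to 29.9%), and stayed out of library sizes. Symbols and exon lengths came from GENCODE vM21, which matched 32642 of 37681 IDs and is on another build, so no coordinates were taken from it. Promoters came from RefSeq on GRCm38.p6.

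Counts were scaled with TMM factors (edgeR 4.0.16, R 4.3.3). Ratios between single libraries have exact conditional-binomial 95% intervals (SciPy 1.17.1), and were taken as 2-fold apart at a ratio of 2 or 0.5 with an interval excluding 1, among genes that reached 5 CPM in either library; a 0 was set to 3 counts. The ratio of ratios has a delta-method interval. With 1 library per group no p-value is given, and PCR copies make counting intervals too narrow. The calculation was tested on simulated data. Alternatives were library totals, DESeq2 1.42.0 size factors, a minimum of 1 CPM and no minimum.

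Named genes were the 10 genes, the 4 genes farthest from a ratio of 1 in each list, past the filter, with fewer printed, and the 3 genes nearest in pattern to the gene of widest range. Other genes are named on the strength of values already seen. The members and lists were chosen with earlier results of these data known. Of the lists, 10 interferon genes, Gbp5 and Gbp6 were not matched and are not analysed here, and 5 alternative symbols matched no ID. Some listed items are not reported here.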

Additional observations from a re-analysis of the deposited data

Results flagged for a closer look

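Ifngr1 had a shRNA ratio of 1.46 after Pam3Cys4 and of 0.777 in unstimulated cells, on different sides of 1. Jak2 had a shRNA ratio of 1.30 after Pam3Cys4 and of 0.661 in unstimulated cells, also on different sides of 1. The stimulation ratio of Ifngr1 was 1.09 with shRNA and 0.580 without. The first of these last values was 0.998 under library totals, on the same side of 1 as the value without shRNA. With 1 library per group these differences between states were not tested, and each pair of ratios shares libraries with the others.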

How the results depend on the processing

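No paired analysis was possible because each group has 1 library, and leaving out a library leaves no comparison. Of 49 ratios of the 10 genes, recomputed as 98 values under library totals and DESeq2 size factors, 66 moved by less than their counting interval, 32 by more, by a factor of at most 1.13, and 0 called ratios changed sign. Under library totals 2 calls changed, those of Tyk2 and of the ratio of ratios of Jak2 given above. Counts over all genes depended on the level filter. At a minimum of 1 CPM, genes at least 2-fold lower with shRNA numbered 893 after Pam3Cys4 and 791 in unstimulated cells, and genes lower after Pam3Cys4 with shRNA 526; the ratio of ratios gave 313 higher and 255 lower genes. With no minimum, the shRNA comparison gave 1610 higher and 1449 lower genes after Pam3Cys4 and 1318 and 1482 in unstimulated cells, the stimulation comparison 1289 and 892 with shRNA and 1332 and 1242 without, and the ratio of ratios, over genes with at least 1 count in each library, 517 and 451. The lower minimums admit more genes by construction. Depth limits Ifnb1, Il10 and the other rare ligands, whose ratios have wide intervals, and the other 9 genes are limited by the lack of replicate libraries rather than by counting.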

Other observations

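Targets of interleukin 10 in macrophages did not follow the interferon targets. After Pam3Cys4, 0 of 9 genes past the filter were at least 2-fold higher with shRNA and 2 lower, and in unstimulated cells 2 were higher and 2 lower, with median log2 ratios of -0.53 and -0.13. Over all genes, 9.0% were higher and 5.58% lower after Pam3Cys4, and 7.00% and 4.82% in unstimulated cells. Hmox1, heme oxygenase 1, was lower with shRNA by 4.08-fold after Pam3Cys4 and by 3.04-fold in unstimulated cells. Ddit4, an inhibitor of mTORC1 signalling, was 2.57-fold lower with shRNA after Pam3Cys4. Il1rn, the interleukin 1 receptor antagonist, and Bcl3, an atypical inhibitor kappa B protein, were 3.12-fold and 2.83-fold higher with shRNA in unstimulated cells. After Pam3Cys4, 4 of 9 were at least 2-fold higher than in unstimulated cells with shRNA and 7 of 9 without, where 6.30% and 7.07% of all genes were.

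Of 10 genes of receptor turnover and trafficking past the filter, 0 were 2-fold apart after Pam3Cys4, and in unstimulated cells 1 was, Ptpn1, a phosphatase that acts on JAK2 and TYK2, at 2.05-fold higher with shRNA. Both counts are near the background of all genes given above.

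The nearest patterns to Ifnb1 over the 4 libraries, by distance between centred log2 levels among 10538 genes with at least 1 CPM, were those of Pim1 (0.15), Il1rn (0.361) and Nod2 (0.37). With 2 counts in the unstimulated library without shRNA, the interval of Ifnb1 there ran from 0.00465 to 0.139 CPM. On the log2 scale that is wider than these distances, so counting error leaves the order of these neighbours unresolved. Pim1, a kinase gene induced through STAT factors, had 134 and 21.9 CPM with shRNA (Pam3Cys4 and unstimulated), against 93.6 and 5.97 CPM without. The nearest to Jak2, among 9322 genes with at least 5 CPM, were Myc (0.177), Themis2 (0.196) and Psd (0.252). Myc, a growth-promoting transcription factor, had 42.8 and 11.5 CPM with shRNA (Pam3Cys4 and unstimulated), against 36.3 and 17.6 CPM without. Each likeness rests on 4 libraries and describes these levels only.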
